A study of Rattus norvegicus with 18 samples.

Results

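Indomethacin blocks the cyclooxygenases that make prostaglandins, and follicles of rats given it before ovulation can fail to rupture while the cells around the retained egg go on to form luteal tissue. The comparison described here set 3 arrays of unruptured follicles from indomethacin-treated rats (IM UF) against 3 arrays of ruptured follicles from untreated rats (control PoF), which are 6 of the 18 arrays of the series, chosen by their sample titles. All animals were Crl:CD(SD) rats whose cycles had been staged by vaginal smear, and both groups were collected at 10:00 on the day of estrus. The treated rats had received a single oral dose of 4 mg/kg indomethacin at 16:00 on the day before, proestrus, and the labels name no vehicle for the untreated rats. Follicles were cut by laser from frozen sections of 8 micrometres, 15 follicles in each phase, so each array holds granulosa, theca and vascular cells together. In such material fewer cells of a type and less RNA per cell cannot be told apart. Treatment and failure to rupture also cannot be told apart, since every treated follicle was unruptured and every control follicle ruptured. Companion groups of 3 arrays each were used for orientation: unruptured follicles of rats given 100 mg/kg RU486, a progesterone receptor antagonist, at 10:00 on proestrus (RU UF), and follicles taken at 22:00 on proestrus from untreated (control PeF) and indomethacin-treated rats (IM PeF). The labels do not tie a sample to an animal, so p-values measure the spread between samples.

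Rupture and the start of luteal growth are accompanied by the entry of blood vessels into what was an avascular granulosa layer. Cells short of oxygen stabilize the alpha subunits of the hypoxia-inducible factors, which prolyl hydroxylases otherwise mark for destruction, and the factors bind a short DNA core at genes of glucose uptake, glycolysis, vessel growth and matrix hydroxylation. Luteinizing cells also need cholesterol for progesterone, and make it through a pathway whose genes are driven by the sterol-regulated factor Srebf2.

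The arrays of the groups compared differed in brightness. The median deposited signal was between 24.2 and 27.4 on the control PoF arrays, and it was 23.8, 7.68 and 19.6 on IM UF arrays 1 to 3. The difference between the 3' and 5' Gapdh probe sets, a sign of RNA integrity, was between 2.07 and 2.31 (log2) in control PoF and was 2.19, 3.86 and 2.62 in IM UF 1 to 3, so by Gapdh IM UF 2 was the most 3'-weighted of the 6, and it was also the dimmest. The same difference for Actb was highest in IM UF 3 (5.33) and was 5.18 in IM UF 2. Values below are log2 quantile-normalized signals unless stated, and a difference is IM UF minus control PoF on that scale. A probe set was called at a limma adjusted p under 0.05 (Benjamini-Hochberg, 18155 probe sets tested). Each SE is limma's, which pools the spread within all 6 groups of the series. An SE, and the p that goes with it, can therefore reflect spread in groups other than those compared. Of the markers fixed for each cell type, the granulosa genes Inha (between 11.2 and 11.8 on the 6 arrays) and Nr5a2 were bright in both groups. Among the 11 tested granulosa genes, Amh was at background on 1 control PoF and 1 IM UF array and Cyp19a1 on 1 IM UF array. Of the 4 tested oocyte genes Zp3 was at background on all 6 arrays. Zp2, Gdf9 and Ooep were each at background on 1 control PoF and 2 IM UF arrays.

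The indomethacin-treated unruptured follicles differed from the ruptured control follicles in few genes that passed the test, and each of those was lower. In limma 6 of the 18155 probe sets were called (0.033%), all lower in IM UF, for Gbe1, Ndrg1, Hmox1, Ero1a, Egln3 and Xist. Counted with 1 probe set per gene, the brightest, 5 of 10391 genes were lower (0.0481%) and 0 were higher (0%), since the called Xist probe set was not the brightest of that gene. At an unadjusted limma p under 0.05, 417 genes were lower (4.01%) and 361 higher (3.47%). The 3 values of IM UF lay below all 3 of control PoF for 962 genes (9.26%) and above them for 965 (9.29%), and the median difference over all genes was 0.00.

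**Figure D1:**
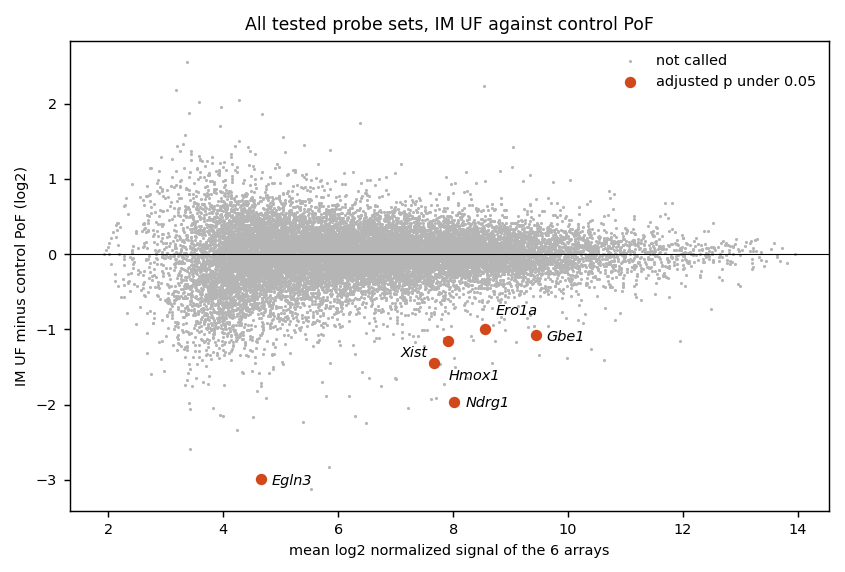
Difference between IM UF and control PoF (log2, vertical) against the mean log2 normalized signal of the 6 arrays (horizontal), 1 point for each of 18155 probe sets. The 6 called probe sets, in orange, all lie below 0, and most of the rest lie around 0 with a wider scatter at low signal.

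The called genes other than Xist belong to a list of 40 hypoxia-responsive genes, which was drawn up with earlier results of these data known and so is no independent evidence. Upstream sequence is shown for 2 of them, and for 2 further members picked after their values and matches were seen, the vessel signal Adm and the glucose transporter Slc2a1, because the hypoxia-inducible factors act through a short core in such regions. The stretches are the 250 bases before the start site in RefSeq (GRCr8), read 5' to 3' along the gene, with each ACGTG and each GCGTG, on either strand, in capitals. Ndrg1, Hmox1 and Ero1a are not in the promoter table used here.
Gbe1, chr11:22181026-22181275, plus strand: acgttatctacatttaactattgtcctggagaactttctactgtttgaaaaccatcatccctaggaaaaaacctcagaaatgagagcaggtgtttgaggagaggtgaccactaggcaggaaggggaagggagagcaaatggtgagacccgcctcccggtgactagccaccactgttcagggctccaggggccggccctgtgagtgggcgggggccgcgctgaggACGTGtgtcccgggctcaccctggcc
Egln3, chr6:77411016-77411265, minus strand: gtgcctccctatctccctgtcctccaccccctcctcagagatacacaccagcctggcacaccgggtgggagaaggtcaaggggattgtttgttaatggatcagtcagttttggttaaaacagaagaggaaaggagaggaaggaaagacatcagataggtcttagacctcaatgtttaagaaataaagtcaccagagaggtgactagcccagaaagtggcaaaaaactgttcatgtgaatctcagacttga
Adm, chr1:174179950-174180199, plus strand: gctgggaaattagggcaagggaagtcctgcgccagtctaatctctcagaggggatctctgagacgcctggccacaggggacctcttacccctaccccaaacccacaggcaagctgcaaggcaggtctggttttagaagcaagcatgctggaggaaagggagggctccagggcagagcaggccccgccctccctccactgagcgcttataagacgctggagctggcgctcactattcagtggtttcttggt
Slc2a1, chr5:138002272-138002521, plus strand: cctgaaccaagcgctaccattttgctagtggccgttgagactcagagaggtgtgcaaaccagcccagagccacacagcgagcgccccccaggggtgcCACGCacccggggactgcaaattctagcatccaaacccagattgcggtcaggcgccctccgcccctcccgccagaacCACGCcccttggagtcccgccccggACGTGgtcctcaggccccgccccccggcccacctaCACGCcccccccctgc
Gbe1 had 1 match and Slc2a1 4, while these letters do not occur in the windows of Egln3 and Adm. Over the list, 29 of 35 tested members were in the table and 21 of them (72.4%) had a match, against 57.5% of the 8690 windows of all tested genes and 36.7% of all 33469 windows. A match describes the letters alone.

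Gbe1, the branching enzyme of glycogen synthesis, gave the smallest adjusted p. It stood at 10.19, 9.91 and 9.82 on the control PoF arrays and at 8.92, 8.83 and 8.93 on the IM UF arrays. Every IM UF array was below every control array and the IM UF values lay close together. The difference was -1.08 ± 0.13 (SE, n = 3 arrays a group), 2.11-fold lower, with a limma adjusted p of 0.00169. Gbe1 remained called when any 1 of the 6 arrays was left out, but not with median scaling (limma adjusted p 0.109) or with the signals as deposited (0.547).

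Ndrg1, a stress-responsive gene widely used as a hypoxia marker, read 9.23, 9.07 and 8.72 in control PoF. In IM UF it read 7.57, 6.86 and 6.69. All IM UF arrays were well below the control arrays, by -1.96 ± 0.27 (SE), 3.90-fold, with a limma adjusted p of 0.0101. Egln3 encodes one of the prolyl hydroxylases that mark the hypoxia-inducible factors and is itself among their targets. Its values were 6.80, 6.52 and 5.12 in control PoF against 3.84, 3.17 and 2.46 in IM UF. Here 2 of the 3 IM UF arrays were at or below the background set by unspiked control probe sets, while 0 of the 3 control arrays were. The fitted difference was -2.99 ± 0.51 (SE) with a limma adjusted p of 0.0478, and its size rests partly on signals that were not above background.

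Hmox1, the inducible heme oxygenase that degrades heme, read 8.56, 8.62 and 8.01 in control PoF and 6.86, 6.78 and 7.20 in IM UF, which did not overlap. The difference was -1.45 ± 0.22 (SE), 2.73-fold, with a limma adjusted p of 0.0247. Ero1a, an oxidase of the endoplasmic reticulum that supports disulfide formation, read 9.19, 8.92 and 9.04 in control PoF and 8.21, 7.96 and 7.98 in IM UF, a difference of -1.001 ± 0.16 (SE, limma adjusted p 0.0379). A second, dimmer Ero1a probe set differed by -0.39 with overlapping groups (limma adjusted p 0.974). Xist is the noncoding RNA of the inactive X chromosome. Its called probe set read 8.67, 8.59 and 8.20 in control PoF and 7.54, 7.06 and 7.39 in IM UF, a difference of -1.15 (limma adjusted p 0.0431). Its other 3 probe sets differed by -0.86, -0.61 and -0.93 and were not called, and the groups overlapped in the first of these.

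The array control PeF 3 stood apart from the others, with a median deposited signal of 4.4 and the lowest array quality weight of the 18 (0.112). Counts of calls in comparisons that include its group are given with and without it. It also enters the pooled spread of the other comparisons, which were not refitted without it alone. At 22:00 none of the 6 called probe sets passed between IM PeF and control PeF, with differences between -0.43 and 0.43 (between -0.38 and 0.45 without control PeF 3). The other Xist probe sets were also not called at 22:00, but differed by -1.67, -0.49 and -0.26. The first of these read 9.06, 9.65 and 9.97 in control PeF and 8.14, 7.58 and 7.94 in IM PeF, without overlap. Its limma adjusted p of 0.154 was the smallest of that comparison. Egln3 was between 2.66 and 3.46 in control PeF and between 3.15 and 3.72 in IM PeF. Ndrg1 was between 6.89 and 7.62 in control PeF and between 6.30 and 7.10 in IM PeF. From 22:00 to 10:00 untreated follicles rose by 0.76 in Gbe1, 1.87 in Ndrg1, 2.41 in Hmox1 and 1.24 in Ero1a (limma adjusted p at most 1.33e-04), and Xist did not pass (0.19). Without control PeF 3 these rises were 0.84, 2.11, 2.28 and 1.22 and still passed. Egln3 was at background on all 3 control PeF arrays and was at least 4.78-fold higher in control PoF (limma adjusted p 1.468e-04), or at least 6.37-fold without control PeF 3. Of the same 6 probe sets in indomethacin-treated follicles over the same hours, Hmox1 rose by 0.74 (limma adjusted p 0.0156), Xist fell by 0.65 (0.0140), and the other 4 did not pass, with differences between -0.35 and 0.33. The test of whether the drug's difference changed between the times called 0 of 18155 probe sets in limma (0%; 1641 at an unadjusted p under 0.05), with a smallest adjusted p of 0.279. IM PeF against control PeF also had 0 calls in limma (0%; 2074 at an unadjusted p under 0.05). Without control PeF 3 both had 0 calls in limma again, with 1077 probe sets of the second at an unadjusted p under 0.05.

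**Figure D2:**
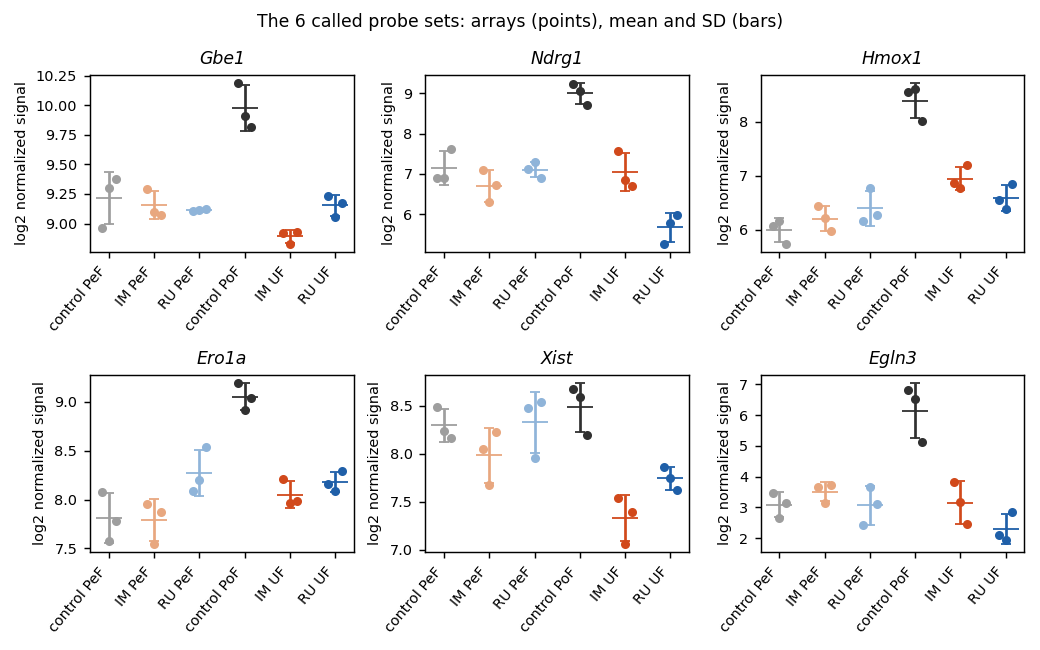
Log2 normalized signal of the 6 called probe sets on each array (points) in the 6 groups, with the mean and SD (n = 3). In all but Xist the control PoF arrays stand above the arrays of every other group.

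The hypoxia list as a whole lay below 0. Of its 40 genes 35 were tested, and 5 of these were called lower and 0 higher. Differences were below 0 for 33 and above 0 for 2, with a median of -0.52 against 0.00 over all genes. Groups did not overlap for 22, of which 21 were lower and 1, Lox, was higher, against 9.26% and 9.29% of all genes. The mean level of the list was 8.90, 8.71 and 8.43 on control PoF 1 to 3 and 8.10, 7.76 and 7.80 on IM UF 1 to 3. Without IM UF 2, the dim array, the median difference was -0.53, with 1 member called.

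Among members that signal or guide vessels, none passed. Adm, the vasodilator peptide adrenomedullin, was at 8.32, 7.44 and 5.99 in control PoF and 5.20, 3.94 and 4.14 in IM UF. The control arrays were widely spread yet all above the treated ones, and the difference was -2.83 ± 0.53 (SE, limma adjusted p 0.0774). Adm did pass with median scaling (0.0350), without IM UF 1 (0.0490) and without control PoF 3 (0.0165), each a limma adjusted p. Vegfa, the main vascular growth factor, was at 10.90, 10.61 and 10.10 against 9.87, 9.79 and 9.93, a difference of -0.67 (limma adjusted p 0.340). A second, dimmer Vegfa probe set was at 7.83, 7.18 and 7.07 against 6.07, 5.17 and 5.92, also without overlap and not called (-1.64, limma adjusted p 0.104). Angpt2, which loosens vessels for remodelling and is not on the hypoxia list, differed by -1.05 without overlap (limma adjusted p 0.202). The brightest probe sets of Apln and Cxcr4 overlapped between the groups, with differences of -0.14 and -0.23, and of the other 2 for Cxcr4 1 overlapped (-0.17) and 1 was lower without overlap (-0.50, limma adjusted p 0.844).

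Apart from Gbe1, the metabolic and mitochondrial members named here did not pass. Slc2a1, the basal glucose transporter, was at 9.59, 9.13 and 9.05 in control PoF and 8.48, 8.44 and 8.34 in IM UF (-0.84, limma adjusted p 0.110). Ak4, a mitochondrial adenylate kinase, differed by -1.46 (limma adjusted p 0.0775), and Bnip3, a mediator of mitophagy, by -1.41 (0.190). Their groups did not overlap. The matrix hydroxylases Plod2, P4ha1 and P4ha2 differed by -0.78, -0.51 and -0.41, each without overlap, and the transcriptional repressor Bhlhe40 by -1.65 (limma adjusted p 0.233).

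The oxygen-sensing factors themselves showed a median difference of -0.06 over 10 tested genes, with 1 called, Egln3. Hif1a was at 12.29, 12.24 and 12.18 in control PoF and 12.03, 12.20 and 12.16 in IM UF. Epas1, the other main alpha subunit, was at 10.94, 11.08 and 10.87 against 10.84, 11.07 and 10.92. Both overlapped, with differences of -0.11 ± 0.10 and -0.02 ± 0.32 (SE), and both were above 0 with median scaling (0.02 and 0.00). RNA levels do not report the stability of these proteins.

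**Figure D3:**
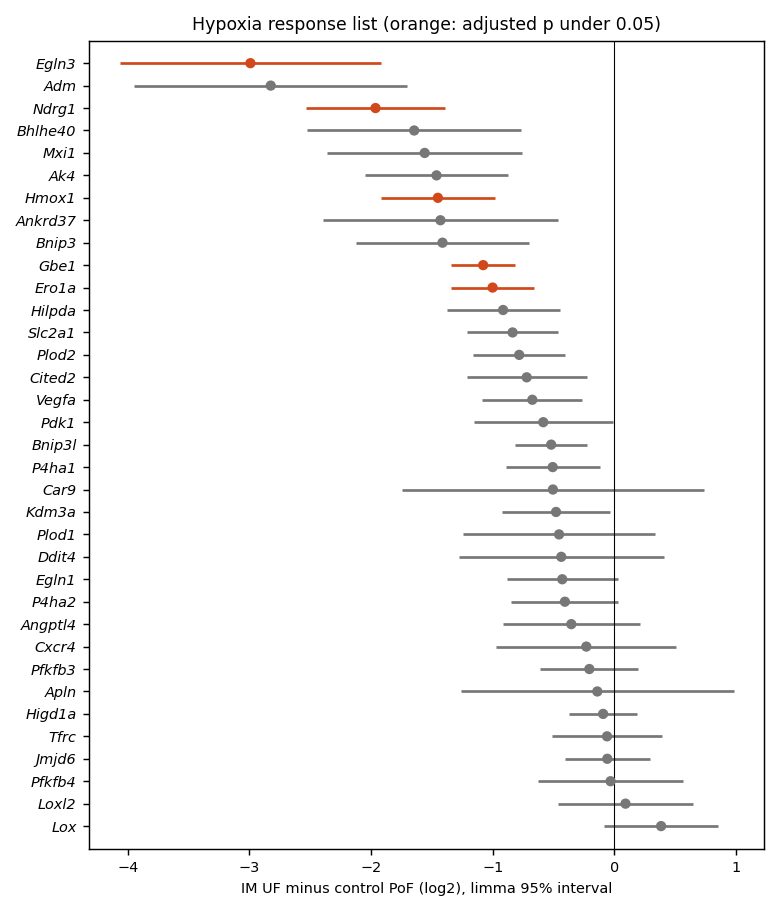
Difference between IM UF and control PoF (log2) for the 35 tested genes of the hypoxia list, with limma's 95% intervals for single genes. Of these, 33 points lie left of 0, and the 5 called genes are in orange.

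Genes of glucose use lay below 0 as well. Of 29 tested genes of glycolysis, lactate and glycogen, 1 was called lower, Gbe1, and 27 were below 0. Groups did not overlap for 18, all of them lower, against 9.26% of all genes. The median was -0.45 (-0.33 without IM UF 2). The list shares Gbe1, Slc2a1, Pdk1, Pfkfb3 and Pfkfb4 with the hypoxia list. Slc16a3, an exporter of lactate, was at 8.52, 8.81 and 8.39 in control PoF and 6.88, 6.24 and 6.84 in IM UF. That difference, -1.92 ± 0.53 (SE), had a limma adjusted p of 0.314. Ldha, which makes lactate, was at 12.07, 12.04 and 12.00 against 11.56, 11.34 and 11.49 (-0.57, limma adjusted p 0.334). Pgk1 and Pgam1, further down the pathway, overlapped, at -0.04 and -0.03, and Pgk1 was 0.09 with median scaling.

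Genes of cholesterol synthesis lay on the other side. None of the 19 tested passed in limma, but all 19 differences were above 0 with the normalized signals. At an unadjusted p under 0.05 14 were higher, against 3.47% of all genes, and 15 were higher without overlap, against 9.29%. The median difference was 0.51 (0.53 without IM UF 2) and the list's mean level was 9.14, 9.22 and 8.82 in control PoF and 9.52, 9.68 and 9.79 in IM UF. With the signals as deposited, where the median of all genes was -0.76, the list's median was -0.24 and 13 of the 19 were below 0, so the direction is relative to the other genes of the arrays. At an unadjusted p under 0.05 median scaling left 7 higher and the deposited signals 0, and with array quality weights 8 were called higher in limma. Upstream sequences of the 2 members with the smallest p are shown with CCAAT, the core bound by the factor NF-Y that acts beside sterol-regulated factors, in capitals on either strand (read as CCAAT or ATTGG).
Fdps, chr2:176804817-176805066, minus strand: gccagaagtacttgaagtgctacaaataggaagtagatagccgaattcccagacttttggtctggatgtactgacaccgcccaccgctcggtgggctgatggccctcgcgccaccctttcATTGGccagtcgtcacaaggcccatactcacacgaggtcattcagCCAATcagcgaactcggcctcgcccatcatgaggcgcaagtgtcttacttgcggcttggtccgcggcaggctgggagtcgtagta
Mvd, chr19:67414975-67415224, minus strand: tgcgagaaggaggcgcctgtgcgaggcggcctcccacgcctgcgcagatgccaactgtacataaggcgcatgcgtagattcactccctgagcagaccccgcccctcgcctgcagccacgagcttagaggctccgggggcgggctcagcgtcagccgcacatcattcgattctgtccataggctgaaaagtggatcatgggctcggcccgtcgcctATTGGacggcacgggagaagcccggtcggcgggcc
Of the 16 members with an entry, 13 had a match (81.2%), against 35.7% of the windows of tested genes and 34.0% of all windows.

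Fdps makes farnesyl diphosphate. It read 10.46, 10.55 and 10.22 in control PoF and 11.13, 11.10 and 11.38 in IM UF, without overlap, and its difference of 0.80 ± 0.14 (SE) fell short of the threshold with a limma adjusted p of 0.0553, or 0.0427 without the 3 dimmest arrays of the series. Mvd, the decarboxylase earlier in the same branch, read 7.63, 8.16 and 7.24 against 8.39, 8.98 and 8.95 (1.10, limma adjusted p 0.0914). Hsd17b7, which acts in cholesterol synthesis and on estrogens, read 8.47, 8.47 and 7.86 against 9.16, 9.56 and 9.42 (1.11, limma adjusted p 0.205), while its second, dimmer probe set overlapped (0.34, limma adjusted p 0.944). Srebf2 itself read 8.49, 8.51 and 8.25 against 8.78, 8.87 and 8.89 (0.43, limma adjusted p 0.390). Lss and Dhcr7, late enzymes of the pathway, overlapped, at 0.17 and 0.30.

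**Figure D4:**
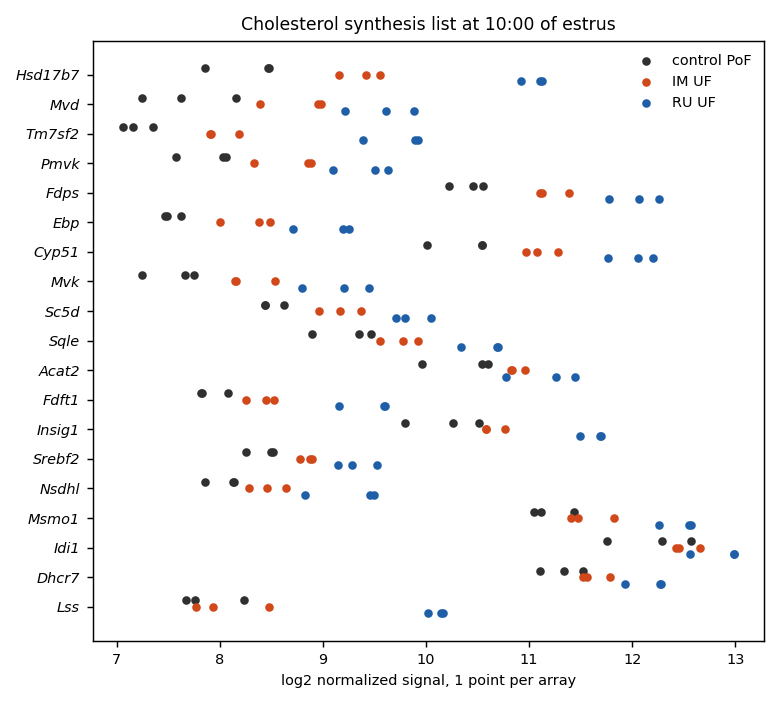
Log2 normalized signal of the 19 tested genes of cholesterol synthesis on the control PoF, IM UF and RU UF arrays, 1 point per array. IM UF lies above control PoF without overlap in 15 genes, and RU UF is mostly farther to the right.

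Steroid synthesis proper differed little. Of 14 tested genes 0 were called in limma and 1 had an unadjusted p under 0.05, Hsd17b7, with a median of 0.06. Star, which carries cholesterol into mitochondria, was at 11.00, 11.26 and 11.28 in control PoF and 11.68, 11.16 and 11.47 in IM UF. Cyp11a1, which cuts the side chain, was at 13.11, 13.35 and 13.22 against 13.20, 13.08 and 13.22. Both overlapped.

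Genes of the drug's target pathway and of the ovulatory programme had no calls in limma. Of 16 tested prostaglandin genes 0 were called and 0 had an unadjusted p under 0.05, with a median of 0.01. The groups did not overlap for 3 lower and 1 higher, against 9.26% and 9.29% of all genes. Ptgs2, the inducible cyclooxygenase, was at 3.90, 3.94 and 4.19 in control PoF and 3.92, 2.51 and 4.20 in IM UF, and 1 IM UF array was at background. Of 16 tested genes of the progesterone receptor list 0 were called in limma, with 1 at an unadjusted p under 0.05, 1 lower without overlap and a median of -0.08. The matrix protease Adamts1 was at 11.83, 11.37 and 11.85 against 11.61, 11.85 and 11.64. Edn2, a vasoconstrictor peptide of the ovulating follicle, was at 9.81, 8.98 and 7.91 against 8.82, 9.11 and 7.82. Of 18 genes induced by luteinizing hormone 0 were called in limma (4 at an unadjusted p under 0.05), and 5 were lower without overlap, against 9.26% of all genes. Rgs2, a brake on G protein signals, had the smallest p, at 11.71, 10.78 and 10.56 against 10.07, 10.05 and 9.17 without overlap (limma adjusted p 0.233).

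Cell cycle genes were mostly below 0 without a call in limma. Of 40 tested, 36 were below 0 and 7 had an unadjusted p under 0.05, with a median of -0.33. Groups did not overlap for 16, all of them lower, against 9.26% of all genes. Ccnb1, the mitotic cyclin, was at 7.51, 7.16 and 7.30 in control PoF and 6.55, 6.38 and 6.51 in IM UF (-0.84, limma adjusted p 0.0553). Top2a, which untangles replicated DNA, differed by -1.05 (limma adjusted p 0.307). Their other probe sets differed less. That of Ccnb1 was at -0.57 without overlap (limma adjusted p 0.801), and that of Top2a at -0.78 with overlap (limma adjusted p 0.785).

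Markers of other cells had no calls in limma either. Of 13 tested endothelial markers 0 were called in limma (1 at an unadjusted p under 0.05) and 12 were below 0, with a median of -0.30. Groups did not overlap for 8, all lower, against 9.26% of all genes. The sum of the normalized endothelial signals was between 1366 and 1435 in control PoF and between 1107 and 1144 in IM UF. No endothelial marker was at background on any of the 6 arrays. Eng differed by -0.51 and Tek by -0.30, while Pecam1 and Emcn overlapped. Of 13 markers of smooth muscle and pericytes 0 were called in limma, with a median of 0.11. Groups did not overlap for 3 of the 13, all higher (Actg2, Tagln and Des), against 9.29% of all genes. Of 15 leukocyte markers 0 were called in limma, with 3 higher and 1 lower at an unadjusted p under 0.05. The median was 0.33, and 2 did not overlap, S100a8 and S100a9, both higher, against 9.29% of all genes. The summed signal of the leukocyte markers was between 617 and 1336 in control PoF and between 854 and 1184 in IM UF, which overlapped. S100a8, a neutrophil protein, was at background on the 3 control PoF arrays and at 4.35, 4.99 and 4.57 in IM UF, at least 2.75-fold higher (limma adjusted p 0.109), and it did not pass. The medians were -0.59 over the 4 tested oocyte markers and -0.41 over the 4 of the ovarian surface epithelium, with 0 called in limma and 0 at an unadjusted p under 0.05 in both. Each of these oocyte markers was at background on 2 or 3 of the IM UF arrays, and the epithelial marker Krt18 on 1. The oocyte median therefore rests largely on signals that were not above background. Of 9 tested theca markers 0 were called in limma and 6 were below 0, with a median of -0.07. For 1 of them IM UF was lower without overlap, against 9.26% of all genes. Of 3 tested erythrocyte markers 0 were called in limma, with a median of 0.01. The 1 below 0 (-2.15) had an unadjusted p under 0.05, and its groups overlapped. The part of cell makeup in the hypoxia and cholesterol differences was not tested.

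**Figure D5:**
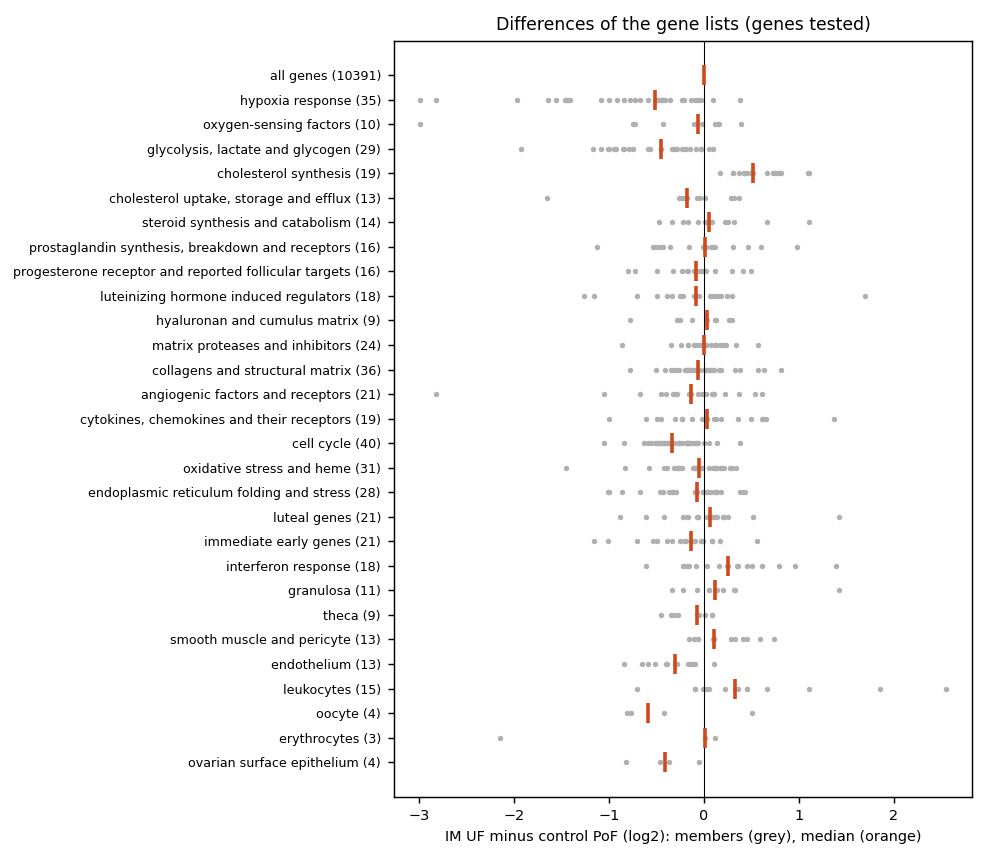
Differences between IM UF and control PoF (log2) of the tested members of each gene list (grey points) with the list's median (orange bar), and the median of all 10391 genes on the top line. The lists of hypoxia response and of glycolysis lie mostly left of 0, and that of cholesterol synthesis lies right of it.

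The unruptured follicles of RU486-treated rats shared the controls, so their values are set beside those above as a description. Doses and dosing hours differed between the drugs. RU UF against control PoF had 566 genes lower (5.45%) and 470 higher (4.52%) in limma. In the hypoxia list 17 were lower and 1, Pfkfb4, was higher, with a median of -0.79, and in the cholesterol list 17 of 19 were higher, with a median of 1.52. For Ndrg1 the RU UF arrays read 5.27, 5.79 and 5.97, below IM UF, and for Gbe1 they read 9.23, 9.05 and 9.18, above it. Egln3 was at background on all 3 RU UF arrays.

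Set directly against RU UF, IM UF had 455 genes higher (4.38%) and 362 lower (3.48%) in limma. Of the cholesterol list 13 of 19 were lower in IM UF, with a median of -0.82, among them Lss (-2.05) and Hsd17b7 (-1.67). Of the steroid list 7 of 14 were lower, including Star (-1.70) and Cyp19a1, the aromatase (-3.76). Of the hypoxia list 3 were higher (Ndrg1, Lox and Cxcr4) and 3 lower (Bnip3l, Cited2 and Pfkfb4), with a median of 0.06. Epas1 was higher in IM UF by 2.18, Adamts1 by 1.55 and Edn2 by 2.10. A second, dimmer Epas1 probe set differed by 0.97 with overlapping groups and was not called (limma adjusted p 0.340).

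Over the night both kinds of follicle changed widely. Control PoF against control PeF had 2540 genes higher (24.4%) and 2045 lower (19.7%) in limma. Without control PeF 3 these were 2141 and 1900 of 10391. IM UF against IM PeF had 2011 higher (19.4%) and 1914 lower (18.4%). In untreated follicles 19 hypoxia genes rose and 2 fell of 35, with a median of 0.76 (19 and 3 without control PeF 3, median 0.82). In indomethacin-treated follicles 9 rose and 6 fell (median 0.21). For glycolysis the counts were 22 and 2 of 29 in untreated follicles (19 and 2 without control PeF 3) and 13 and 6 in treated ones. The difference between these changes, with control PeF 3 included, had a median of -0.98 over the hypoxia genes. None of them passed in its test, as given above.

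The counts of calls were sensitive to single arrays. Without IM UF 2, IM UF 3 or control PoF 1 in turn, 1 probe set was called in IM UF against control PoF, without control PoF 2 there were 2, and without IM UF 1 there were 17. With array quality weights, which lower the weight of IM UF 2, 171 were called, 122 of them lower.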

How the data were processed

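Labelled RNA of 18 follicle samples was measured on Affymetrix arrays of 31099 probe sets. The authors deposited intensity values on a linear scale, none under 1. The submitters' processing notes name MAS5, with no role or scaling stated. Median signals differed between arrays, so arrays were quantile-normalized and log2 was taken after adding 2.8, the 20th percentile over every array. After removal of 57 controls, 18155 probe sets exceeded the array's own median in 3 or more of the 18 samples and were tested. Background was the brightest of 27 unspiked control probe sets on each array. Limma 3.58.1 (R 4.3.3) was fitted with 6 group means, a mean-variance trend and 12 residual degrees of freedom. P-values were adjusted by Benjamini-Hochberg at 0.05, and the fit was checked on simulated data. Genes were named through the platform annotation (20826 probe sets with 1 symbol, 436 with several, 9780 with none) and the brightest probe set of each of 10391 genes was counted. Figures used matplotlib 3.10.9 (Python 3.11.15).

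Named genes were those called, the 8 largest non-overlapping differences each way at an unadjusted p under 0.01, up to 2 members of each list by p, and 30 fixed genes; others in the text were chosen after their values were seen. The 20 pathway and 8 cell type lists and the genes were chosen with earlier results of these data known. The number of arrays limits the precision. An exact permutation test of 3 against 3 cannot pass 0.05. Alternatives covered scaling, pseudocount, filter, variance model, array weights, a replicate block and left-out arrays. The fits of the 22:00 comparisons without control PeF 3 were added after the data were seen.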

Additional observations from a re-analysis of the deposited data

How the results depend on the processing

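Calls in IM UF against control PoF were 6, and between 4 and 8 with median scaling, the signals as deposited, no filter, a stricter filter, no variance trend, robust moderation, a pseudocount of 1, or only the groups compared. A similar count did not mean the same genes: median scaling kept 2 of the 6 and the deposited signals 1. The count was 171 with array quality weights, 14 with the larger pseudocount and 13 without the 3 dimmest arrays, and from 1 to 17 when 1 array was left out. All 6 stayed below 0 under every alternative run on them. IM UF against RU UF had 1261 calls, 557 with median scaling, 32 with the signals as deposited, 2642 with weights, and from 660 to 920 without 1 array. RU UF against control PoF had 1578, 794 with median scaling (507 lower and 287 higher, against 811 and 767), 151 with the signals as deposited (141 lower and 10 higher), 3686 with weights, 3115 with only the groups compared, 3109 without the 3 dimmest arrays, and from 858 to 1034 without 1 array. IM UF against IM PeF had 6050, 609 with the signals as deposited, 10150 with weights, and from 4560 to 6444 without 1 array. The difference between times had 0 in limma (1641 at an unadjusted p under 0.05), 548 with weights, 5 with the signals as deposited, and 0 without any 1 array. The cause of these changes was not tested. Same-numbered arrays did not deviate together (correlations -0.05, -0.01 and 0.01), so the numbers were not taken as pairs; with a replicate block the counts were 8, 1117, 1383, 5849 and 0 in the order above. Low signals near background limit the size of differences such as that of Egln3.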

Other observations

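Some genes outside the lists had large differences whose groups did not overlap, and none of them passed in limma. Adh1c, Tram2 and Ltbp2 are such genes, and the genes given after them are list members. Adh1c, an alcohol dehydrogenase, was at 7.27, 7.82 and 7.73 in control PoF and 4.92, 4.34 and 6.85 in IM UF (-2.24, limma adjusted p 0.232). Tram2 was at 4.93, 4.78 and 4.44 in control PoF and at background on all 3 IM UF arrays, at least 2.40-fold lower. Ltbp2, which binds latent growth factor complexes in the matrix, was at 4.30, 2.21 and 2.45 against 4.97, 5.22 and 4.64 (limma adjusted p 0.390), and 2 of the 3 control PoF arrays were at background, so the size of its difference is not given. Of 18 tested interferon genes 0 were called in limma, 12 were above 0 and 5 did not overlap upward, against 9.29% of all genes. The list's median was 0.25, which median scaling made 0.18 and the deposited signals -0.52. Ifi27 read 9.46, 8.58 and 9.73 against 10.43, 9.95 and 10.27 and Oas1a read 5.30, 4.53 and 5.64 against 6.97, 6.89 and 5.77. Among immediate early genes 17 of 21 were below 0, and Jun, a part of the AP-1 factor, was at 7.98, 8.22 and 8.42 against 7.63, 7.57 and 7.30, while its other 2 probe sets overlapped (0.09 and -0.28). The chemokine Cxcl12 was at 7.83, 7.94 and 8.10 in control PoF and 7.38, 6.96 and 6.52 in IM UF (-1.003, limma adjusted p 0.120), and without IM UF 1 it passed (0.0491), while its other probe set overlapped (-0.53, limma adjusted p 0.650). Inhba, a subunit of activins and inhibins, was at 8.37, 8.18 and 8.44 in control PoF and at 11.27, 9.15 and 8.82 in IM UF, where array 1 stood apart (1.42, limma adjusted p 0.751).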
